A study of Mus musculus with 6 samples.

Results

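The effect of aurintricarboxylic acid (ATA) on TAZ-CAMTA1 cells was examined in 4 of the 6 libraries of the series. In 3 of them the cells had received ATA at 10 μM over 48 h (TC + ATA), and in 1 they had received the vehicle, DMSO (TC). These 4 libraries were taken from the sample labels alone. All 4 came from NIH3T3 cells, an immortalized line of mouse fibroblasts, that stably expressed the TAZ-CAMTA1 fusion (TC), and poly(A)-selected RNA was sequenced. The other 2 libraries, empty vector cells with DMSO (EV), lack the fusion and give the level of each gene without it. No EV cells treated with ATA were analysed here, so an effect of ATA through the fusion and one that does not need it cannot be told apart.

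TAZ, encoded by Wwtr1, is a transcriptional coactivator that the Hippo pathway keeps out of the nucleus, and it acts on genes by binding the TEAD transcription factors. In epithelioid hemangioendothelioma, a vascular sarcoma, a translocation joins it to CAMTA1, and the resulting protein keeps the part of TAZ that binds TEAD. ATA is a polyanionic aromatic compound that the study selected as a disruptor of TAZ-TEAD binding, and it is also known to act on many other proteins, among them those that bind nucleic acids. The comparison asks which transcripts of TC cells differed after ATA, and where each stood in EV cells.

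Library totals ran from 58471484 to 74413193 counts, and 18539 genes passed the filter on low counts. The 3 TC + ATA libraries differed more than counting error predicts, with a chi-square per degree of freedom of 5.86 to 6.61 between pairs. The same value was 22.8 to 24.7 between TC and each of them, and 61.3 between the EV libraries. The summed level of 10 fibroblast markers was 18600 CPM (CPM being read counts scaled to the TMM-normalized library total) in TC and between 18210 and 19400 CPM in TC + ATA. Epithelial markers summed to at most 4.73 CPM in any library, and leukocyte markers to at most 31.3 CPM. Endothelial markers summed to 37.9 CPM in TC and 49.7, 44.4 and 42.3 CPM in TC + ATA, most of it from Flt1 alone. Reads of Wwtr1 came to 138.6 CPM in TC and to 131.4, 129.0 and 131.4 CPM in TC + ATA (log2 fold change −0.09, standard error 0.07, edgeR adjusted p = 0.779), and counts per gene do not separate the fusion from the endogenous transcript.

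The edgeR quasi-likelihood test used 1 fit over all 6 libraries, and a gene was called at a Benjamini-Hochberg adjusted p of at most 0.05. Of the genes tested, 108 were called (0.583%), with 79 higher (0.426%) and 29 lower (0.156%) in TC + ATA than in TC. All 108 had the 3 TC + ATA libraries on one side of the TC library, a pattern that 30.5% of all genes tested showed above TC and 32.7% below it. Without adjustment, p was under 0.05 for 1048 genes with a higher level (5.65%) and 733 with a lower one (3.95%). Of the called genes, 28 rose and 13 fell by at least 2-fold. Because TC is 1 library, its own variation was not measured, and the EV and TC + ATA replicates set the spread, with 3 residual degrees of freedom. The labels do not state that replicates were separate cultures, so p-values measure the spread between these libraries. Exons of 34 of the 108 genes overlap those of a gene on the opposite strand, and their counts may hold reads of both.

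The number of calls depended on the libraries that set the spread. With only TC and TC + ATA in the fit, 795 of 18000 genes tested were higher and 633 lower, and all 108 genes were among them. Without TC + ATA replicate 1, 2 or 3, the calls came to 28, 21 and 7 higher and to 12, 7 and 3 lower. Of the 108 genes, 9 stayed called under every alternative tried, namely Ccn5, Ptx3, Atoh8, Daam2, Thbs1, Smoc2, BC023105, Iigp1 and Gm4841. No called gene changed direction under any of them. This was nearly fixed in advance, since every fit holds the same TC library with the treated libraries on one side of it. As a description that needs no test, 131 genes (1.03% of 12712 with a mean of at least 1 CPM) lay at least 1.5-fold above TC in every TC + ATA library, and 36 (0.283%) lay at least 1.5-fold below.

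**Figure D1:**
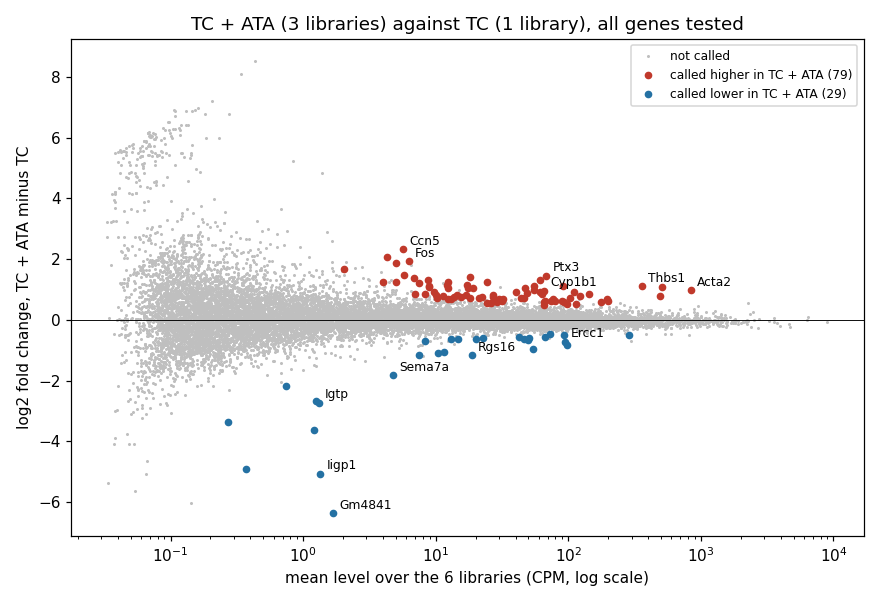
Each point is 1 of the 18539 genes tested, with its mean level over the 6 libraries in CPM on a log scale and its fitted log2 fold change, TC + ATA minus TC. The 79 genes called higher lie up to 2.32 and the 29 called lower reach down to −6.37. The uncalled genes spread most at the lowest levels.

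Several BMP target genes rose. Bone morphogenetic proteins signal through SMAD1, SMAD5 and SMAD9, and the ID genes, which encode inhibitors of basic helix-loop-helix factors, are direct targets of these SMADs. Of 22 BMP targets, receptors and feedback genes tested, 7 rose, none was called lower, and 15 did not pass the test. The median log2 fold change of the list was −0.02 (0.00 when libraries were scaled by their totals alone), beside 0.00 over all genes. Of the 22, 11 had a fitted rise, the 7 called genes among them, and 11 had a fitted fall. Most members that were not called therefore lay below 0.

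Id1 (GRCm38 chromosome 2, 152736251 to 152737410) had 31.3 CPM in TC and 66.4, 65.5 and 71.6 CPM in TC + ATA, against 53.7 and 45.1 CPM in EV. All 3 treated libraries lay above both TC and EV. Its log2 fold change was 1.11 (standard error 0.12, edgeR adjusted p = 0.00538). Id3 was at 101.1 CPM in TC and at 188.3, 176.1 and 181.5 CPM in TC + ATA, while EV, at 111.2 and 99.4 CPM, was near TC (log2 fold change 0.85, edgeR adjusted p = 0.00679). Id4 stood at 7.97 CPM in TC, at 16.2, 17.7 and 18.6 CPM in TC + ATA and at 21.6 and 21.7 CPM in EV. Id2 was likewise lowest in TC, at 29.8 CPM, with 51.1, 55.8 and 62.5 CPM in TC + ATA and 84.2 and 85.8 CPM in EV. The log2 fold changes of Id4 and Id2 were 1.14 and 0.92, with standard errors of 0.12 for both.

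Smad9 (chromosome 3, 54755582 to 54801257), the gene of a SMAD that BMP receptors activate and that BMP signaling itself induces, had the largest rise of the list. It had 2.74 CPM in TC, 7.58, 7.27 and 8.02 CPM in TC + ATA and 5.0 and 3.82 CPM in EV (log2 fold change 1.48, standard error 0.20, edgeR adjusted p = 0.0165). Atoh8 (chromosome 6, 72206177 to 72235577), a basic helix-loop-helix factor gene induced by BMP in several cell types, had 11.4 CPM in TC and 28.2, 26.4 and 27.0 CPM in TC + ATA. Its EV values, 27.3 and 24.9 CPM, overlapped those of the treated cells (log2 fold change 1.25, standard error 0.11, edgeR adjusted p = 0.00234). Smad6, which encodes an inhibitory SMAD, rose from 15.5 CPM in TC to 26.0, 26.9 and 24.2 CPM in TC + ATA (log2 fold change 0.73, edgeR adjusted p = 0.0207). Smad7, the other inhibitory SMAD gene, was at 31.7 CPM in TC and 29.6, 30.3 and 32.4 CPM in TC + ATA (log2 fold change −0.04, edgeR adjusted p = 0.940). Unlike those of Smad6, its treated values straddled the TC value. Of 21 genes of the TGF-beta and activin axis, none was called higher and 1 was called lower, Ltbp2, which encodes a latent TGF-beta binding protein family member.

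Members of 3 extracellular matrix lists rose. Of 29 genes of matricellular, elastic and adhesive matrix proteins, 5 rose (Thbs1, Mgp, Smoc2, Thbs2 and Emilin1) and 1 fell (Edil3). The list's median log2 fold change was 0.31. All 3 treated libraries were above TC in 20 of its members (69%), beside 30.5% of all genes. Of 24 proteoglycan and hyaluronan genes, 4 rose (Aspn, Fmod, Ptx3 and Prelp) and none was called lower, with a median of 0.19. Of 30 matrix proteases and inhibitors, Adamts9 and Timp3 rose, and the median was 0.24. None of 29 collagen and crosslinking genes was called (median 0.09), although 7 were higher at an unadjusted p under 0.05 in edgeR (5.65% over all genes). DESeq2 on all libraries called 5 of them higher, beside 285 of 18539 genes. All 3 treated libraries were above TC in 16 of the 29 and below it in 6 (30.5% and 32.7% of all genes). Col1a1, a chain of type I collagen, was at 4356 CPM in TC and at 4178, 4064 and 3838 CPM in TC + ATA. Col1a2 went the other way, from 6623 CPM in TC to 7223, 7229 and 6872 CPM in TC + ATA.

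Ccn5 (chromosome 2, 163820861 to 163833146) encodes a secreted CCN family protein without the C-terminal domain of its relatives, and it had the largest rise among all called genes. It had 1.40 CPM in TC, 6.62, 7.18 and 7.16 CPM in TC + ATA and 6.04 and 5.71 CPM in EV. The treated libraries were thus above TC and slightly above EV, with a log2 fold change of 2.32 (standard error 0.18, edgeR adjusted p = 0.00161). Its family members Ccn1 and Ccn2, classical TEAD targets, were not called.

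Ptx3 (chromosome 3, 66219910 to 66225805) encodes a pentraxin that crosslinks the hyaluronan matrix. It had 21.9 CPM in TC, 60.2, 62.7 and 57.9 CPM in TC + ATA and 106.0 and 101.1 CPM in EV (log2 fold change 1.46, standard error 0.09, edgeR adjusted p = 0.00126). The treated values lay between TC and EV without reaching EV. Thbs1 (chromosome 2, 118111876 to 118127133), the gene of thrombospondin 1, an inhibitor of angiogenesis and activator of latent TGF-beta, stood likewise between them. It had 151.9 CPM in TC, 309.5, 335.6 and 332.2 CPM in TC + ATA and 512.7 and 527.0 CPM in EV (log2 fold change 1.10, standard error 0.09, edgeR adjusted p = 0.00219). Its relative Thbs2 had 241.0 CPM in TC and 414.0, 427.5 and 398.5 CPM in TC + ATA, with 745.8 and 702.8 CPM in EV. Thbs1 shares 208 of 6073 exonic bases with a gene on the opposite strand, and whether counting used strand is not given in the sources used here.

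Other matrix genes stayed further from EV. Smoc2, which encodes a calcium-binding matricellular protein, had 12.98 CPM in TC, 27.1, 25.8 and 24.0 CPM in TC + ATA and 116.7 and 121.8 CPM in EV (log2 fold change 0.98, edgeR adjusted p = 0.00488). Mgp, an inhibitor of tissue calcification, had 18.3 CPM in TC, 36.6, 39.4 and 38.2 CPM in TC + ATA and 81.3 and 67.3 CPM in EV (log2 fold change 1.06, edgeR adjusted p = 0.00786). In both genes every treated library lay above TC and below EV.

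Among the small leucine-rich proteoglycans, which bind collagen fibrils, the EV levels fell on either side. Aspn had 0.864 CPM in TC, 4.35, 3.12 and 3.58 CPM in TC + ATA and 6.78 and 6.86 CPM in EV (log2 fold change 2.08, standard error 0.25, edgeR adjusted p = 0.0107). Fmod had 1.01 CPM in TC and 3.38, 2.78 and 3.54 CPM in TC + ATA, but 0.775 and 0.708 CPM in EV (log2 fold change 1.68, standard error 0.28, edgeR adjusted p = 0.0426). Prelp was at 3.29 CPM in TC, 7.69, 8.32 and 7.59 CPM in TC + ATA and 1.69 and 1.47 CPM in EV. Fmod and Prelp were therefore highest in the treated cells and lowest in EV, whereas Aspn was lowest in TC.

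**Figure D2:**
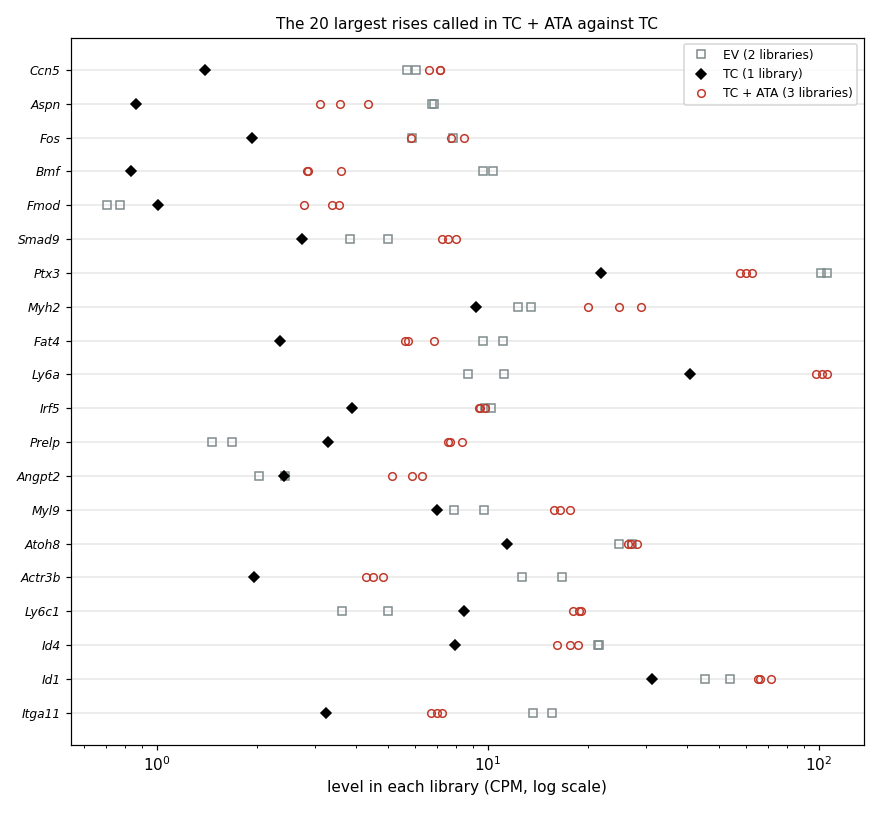
The 20 largest rises among called genes with a mean of at least 1 CPM, with the level in each library in CPM on a log scale (squares EV, diamond TC, circles TC + ATA). In each gene the 3 circles lie to the right of the diamond, and the squares lie on either side of them, above the circles for Ptx3 (106.0 and 101.1 CPM) and below them for Ly6a (11.1 and 8.70 CPM).

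Itga11, the collagen-binding integrin chain alpha 11, rose and was the only one of 20 integrin genes called, with a list median of −0.09 (3.24 CPM in TC, 7.25, 7.01 and 6.74 CPM in TC + ATA, 15.6 and 13.6 CPM in EV). Of 37 growth factor and receptor genes, Ptn and Igfbp7 rose and Ccbe1 fell, with a median of 0.01. Ptn, the growth factor pleiotrophin, went from 104.0 CPM in TC to 221.0, 231.3 and 214.9 CPM in TC + ATA, far below EV at 1092 and 1206 CPM (log2 fold change 1.10, edgeR adjusted p = 0.00404). Cxcl12, a chemokine that guides stem cells and lymphocytes, had 9.93 CPM in TC, 18.7, 18.6 and 18.9 CPM in TC + ATA and 85.0 and 91.2 CPM in EV (log2 fold change 0.92, edgeR adjusted p = 0.00488). These 3 genes were above TC in every treated library and did not reach EV in any.

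Angpt2, a ligand of the endothelial receptor TIE2, had 2.42 CPM in TC, 5.90, 6.33 and 5.12 CPM in TC + ATA and 2.43 and 2.03 CPM in EV (log2 fold change 1.26, edgeR adjusted p = 0.0447). Endothelial markers summed to 37.9 CPM in TC and 42.3 to 49.7 CPM in TC + ATA. Most of this was Flt1, at 33.5 CPM in TC and 45.0, 40.1 and 38.5 CPM in TC + ATA. Cdh5 went the other way, from 1.43 CPM in TC to 0.58, 0.80 and 0.62 CPM in TC + ATA. Of the 10 markers, 3 had all 3 treated libraries above TC and 2 below it (30.5% and 32.7% of all genes). The part of such cells in the rise of Angpt2 was not tested. Adm, the vasodilator peptide adrenomedullin and a hypoxia-responsive gene, had 7.26 CPM in TC and 15.6, 15.6 and 14.3 CPM in TC + ATA (log2 fold change 1.06, edgeR adjusted p = 0.00547). It was the only called member among 29 glycolysis and hypoxia genes, whose median was −0.01 (0.01 when scaled by library totals alone). Igfbp7, a secreted binding protein of insulin-like growth factors, had 183.0 CPM in TC, 285.7, 281.5 and 281.6 CPM in TC + ATA and 92.1 and 81.9 CPM in EV. Its values were highest in the treated cells.

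The surface antigens Ly6a (also known as Sca-1) and Ly6c1 belong to a family of small glycolipid-anchored proteins with close copies on chromosome 15, between which reads may be shared or lost. Ly6a had 40.9 CPM in TC, 101.7, 106.0 and 97.7 CPM in TC + ATA and 11.1 and 8.70 CPM in EV (log2 fold change 1.32, standard error 0.13, edgeR adjusted p = 0.00476). Ly6c1 had 8.49 CPM in TC, 18.1, 18.9 and 19.1 CPM in TC + ATA and 4.99 and 3.62 CPM in EV. For both genes, EV was lowest and the treated cells were highest, without overlap between the groups.

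Among regulators, Irf5, a transcription factor of innate immunity, had 3.88 CPM in TC, 9.40, 9.82 and 9.45 CPM in TC + ATA and 9.76 and 10.2 CPM in EV (log2 fold change 1.30, standard error 0.13, edgeR adjusted p = 0.00538). Its treated values overlapped those of EV. Bmf, a BH3-only protein that promotes apoptosis, had 0.836 CPM in TC, 3.61, 2.86 and 2.85 CPM in TC + ATA and 10.4 and 9.68 CPM in EV (log2 fold change 1.89, standard error 0.23, edgeR adjusted p = 0.0107). No other of the 14 BCL2 family genes was called. Fat4, a giant cadherin of planar polarity, rose by 1.37 on the log2 scale and Actr3b, a subunit of an Arp2/3 actin nucleation complex, by 1.21, each staying below EV. Rgs4, which shortens signaling by G proteins, had 4.60 CPM in TC and 8.08, 8.41 and 8.71 CPM in TC + ATA.

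Fos, the immediate early gene of an AP-1 subunit, had 1.93 CPM in TC, 5.84, 7.74 and 8.46 CPM in TC + ATA and 5.91 and 7.82 CPM in EV. The treated libraries overlapped EV and lay above TC (log2 fold change 1.93, standard error 0.27, edgeR adjusted p = 0.0194). It was the only member called among 28 AP-1 and immediate early genes (median 0.15). Egr1 had 142.9 CPM in TC and 199.5, 204.2 and 228.0 CPM in TC + ATA (log2 fold change 0.56, edgeR adjusted p = 0.0545). Jun, on the other hand, had 187.7 CPM in TC and 155.6, 151.8 and 145.9 CPM in TC + ATA (log2 fold change −0.31, edgeR adjusted p = 0.169), and Fosl1 had a log2 fold change of −0.37 (edgeR adjusted p = 0.127). These 3 did not pass the test.

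Of 24 actomyosin and SRF target genes tested, Acta2 and Myl9 rose, none was called lower, and the median was 0.04. Acta2 (chromosome 19, 34241090 to 34255590), smooth muscle actin and a mark of activated fibroblasts, had 620.0 CPM in TC, 1242, 1230 and 1181 CPM in TC + ATA and 460.1 and 345.3 CPM in EV (log2 fold change 0.97, standard error 0.15, edgeR adjusted p = 0.0303). Myl9, a regulatory light chain of non-muscle and smooth muscle myosin, had 7.02 CPM in TC and 15.8, 16.5 and 17.7 CPM in TC + ATA, with 9.71 and 7.90 CPM in EV (log2 fold change 1.25, edgeR adjusted p = 0.0103). In both genes every treated library was above TC and EV.

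Transcripts of adult striated muscle, which fibroblasts do not normally make, were present in every library, EV included. A list of 36 such genes, chosen after the values were seen, summed to 2209 CPM in TC, to 3200, 2675 and 2548 CPM in TC + ATA and to 2203 and 1607 CPM in EV. Of its members, 35 were tested, and all 35 had the 3 TC + ATA libraries above TC, beside 30.5% of all genes. Their median log2 fold change was 0.48. Because the list was picked on these values, both figures are descriptions and support nothing. In the separate list of muscle and adipocyte markers, 4 of 8 genes tested lay above TC and 2 below (30.5% and 32.7% of all genes). The 2 were Actc1 (2.61 CPM in TC, 0.545, 1.17 and 1.05 CPM in TC + ATA) and Myod1. Of the 35 genes, only Myh2 and Mb passed the test. Myh2, a fast skeletal myosin heavy chain, had 9.18 CPM in TC and 29.0, 24.8 and 20.1 CPM in TC + ATA (log2 fold change 1.42, edgeR adjusted p = 0.0180), and Mb, myoglobin, had 7.66 CPM in TC and 18.3, 13.1 and 16.3 CPM in TC + ATA (log2 fold change 1.05, edgeR adjusted p = 0.0488). Myh4, the most abundant of these in counts, had 538.1 CPM in TC and 683.2, 581.9 and 554.3 CPM in TC + ATA, and was not called. Genes of muscle progenitors and myotubes summed to only 4.60 CPM in TC and 2.69 to 3.74 CPM in TC + ATA, and red cell genes to 1.33 CPM in TC and 2.85 to 3.13 CPM in TC + ATA. The part of this RNA in the rises of Acta2, Myl9 and the matrix genes was not tested. Fewer cells of a type and less RNA per cell cannot be told apart in these bulk libraries.

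The aryl hydrocarbon receptor (AhR) is a ligand-activated factor that binds aromatic compounds and induces xenobiotic-metabolizing enzymes through the xenobiotic response element. Of 10 genes of AhR and its targets, Cyp1b1 was called higher and none lower, and the list's median was 0.45. Cyp1b1 (chromosome 17, 79701537 to 79715061), a cytochrome P450 that oxidizes polycyclic aromatics and estradiol, had 41.4 CPM in TC, 82.1, 80.8 and 80.0 CPM in TC + ATA and 58.2 and 51.4 CPM in EV. The treated libraries were above both other groups (log2 fold change 0.97, standard error 0.09, edgeR adjusted p = 0.00476).

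Other AhR targets lay above TC in the 3 treated libraries without passing the test. Cyp1a1, the classical AhR-induced enzyme, had 2.204 CPM in TC, 4.28, 4.08 and 4.10 CPM in TC + ATA and 0.0267 and 0.0393 CPM in EV (log2 fold change 0.91, edgeR adjusted p = 0.155). Ahrr, the repressor that AhR induces, had 0.159 CPM in TC and 0.598, 0.621 and 0.820 CPM in TC + ATA (log2 fold change 2.09, edgeR adjusted p = 0.226). Nqo1, a quinone reductase, had 140.7 CPM in TC and 209.4, 197.9 and 203.3 CPM in TC + ATA (log2 fold change 0.53, edgeR adjusted p = 0.183). Tiparp, another AhR-induced gene, did not follow them, with 89.2 CPM in TC and 88.5, 86.6 and 87.6 CPM in TC + ATA. With only TC and TC + ATA in the fit, 5 of the 10 genes were called higher, beside 795 of all 18000 genes in that fit. Outside the list, Ephx1, an epoxide hydrolase, rose by 0.68 and Gstm2, a glutathione transferase with close copies, by 0.69 on the log2 scale.

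The promoters of the called gene Cyp1b1 and of Cyp1a1 are shown because they hold the core of the response element. The sequences are from RefSeq, build GRCm38.p6, 250 bases before to 50 bases after the annotated start, 5′ to 3′ on the gene's strand. They lie at chr17:79715012-79715311 (minus strand) and chr9:57697363-57697662 (plus strand), and capitals mark NGCGTG on either strand.
Cyp1b1: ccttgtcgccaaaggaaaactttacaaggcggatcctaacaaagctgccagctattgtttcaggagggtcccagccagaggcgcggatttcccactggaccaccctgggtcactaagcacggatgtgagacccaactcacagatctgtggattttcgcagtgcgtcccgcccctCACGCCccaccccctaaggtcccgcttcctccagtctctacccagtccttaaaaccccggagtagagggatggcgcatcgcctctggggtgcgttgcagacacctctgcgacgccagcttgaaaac
Cyp1a1: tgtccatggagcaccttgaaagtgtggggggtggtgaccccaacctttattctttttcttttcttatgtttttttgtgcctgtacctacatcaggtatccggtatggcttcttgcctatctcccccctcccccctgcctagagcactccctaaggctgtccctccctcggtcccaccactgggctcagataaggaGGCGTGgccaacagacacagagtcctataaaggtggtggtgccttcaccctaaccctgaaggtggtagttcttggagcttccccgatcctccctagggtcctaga
Each holds 1 match, and 5 of the 7 AhR list genes with a promoter in the table hold at least 1. These letters are common, being in 32.3% of all 32851 promoters. Counted per gene, in any promoter of the gene, they were in 52.9% of tested genes with a promoter. The same count gave 30 of 60 genes called higher and 12 of 16 called lower.

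The largest falls belonged to immunity-related GTPases. The IRG and GBP families are interferon-induced GTPases that attack the vacuoles of intracellular parasites. Of 20 members tested, 6 fell and none was called higher. The other 14 did not pass the test. Of all 20, 9 had a fitted rise and 11 a fitted fall, the 6 called genes among the falls, and the median was −0.10. Gm4841 had 650 counts in TC, 8, 11 and 3 counts in the TC + ATA libraries and 7 and 19 counts in EV (log2 fold change −6.37, standard error 0.45, edgeR adjusted p = 0.00140). Iigp1 had 483 counts in TC, 10, 21 and 10 counts in TC + ATA and 19 and 21 counts in EV (log2 fold change −5.06, standard error 0.34, edgeR adjusted p = 0.00126). For both genes the TC library stood alone, and the treated and EV libraries were both low.

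The same order held for the other called members. F830016B08Rik had 130 counts in TC, 4, 6 and 2 in TC + ATA and 9 and 4 in EV, and Gbp10 had 70 counts in TC, 6, 7 and 6 in TC + ATA and 9 and 16 in EV. Igtp (chromosome 11, 58199556 to 58207591) had 4.11 CPM in TC, 0.440, 0.621 and 0.791 CPM in TC + ATA and 1.07 and 0.813 CPM in EV (log2 fold change −2.72, standard error 0.33, edgeR adjusted p = 0.0103). Irgm2 (chromosome 11, 58199618 to 58222782) had 3.49 CPM in TC, 0.370, 0.748 and 0.503 CPM in TC + ATA and 1.23 and 1.13 CPM in EV (log2 fold change −2.67, standard error 0.35, edgeR adjusted p = 0.0135). In these 2 genes the treated libraries were below EV as well as below TC. BC023105, a processed pseudogene outside the list, had 347 counts in TC, 26, 26 and 28 in TC + ATA and 34 and 43 in EV. It starts at 60441765 on chromosome 18, in the same stretch as Gm4841 (60268305), F830016B08Rik (60293380) and Iigp1 (60376027). Reads of these families can be shared between close copies, Igtp and Irgm2 share 162 exonic bases on the same strand, and Gbp10 shares 1792 of its 3873 exonic bases with other genes. Each of these differences rests on the single TC library. Gm4841, Iigp1 and BC023105 also reached the mean of 1 CPM used to choose named falls only through TC, being below 1 CPM in every other library. F830016B08Rik and Gbp10 were likewise below 1 CPM in every library but TC. The choice of these genes as large falls therefore depends on their high TC value.

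Irgm1, another member of the IRG family, had 10.4 CPM in TC and 8.73, 9.27 and 10.3 CPM in TC + ATA (log2 fold change −0.14, edgeR adjusted p = 0.878). Of 33 other interferon-stimulated genes, none was called in edgeR's test, and the list's median was 0.28. At an unadjusted p under 0.05, 8 were higher and none lower, beside 5.65% and 3.95% of all genes. DESeq2 on all libraries called 1 higher, beside 285 of 18539 genes. With only TC and TC + ATA in edgeR's fit 3 were higher and none lower, beside 795 and 633 of 18000 genes. Bst2, an antiviral membrane protein, had 75.7 CPM in TC and 99.6, 97.2 and 92.4 CPM in TC + ATA, and Ifit2 had 120.3 CPM in TC and 120.7, 113.0 and 115.7 CPM in TC + ATA. Both were far above EV, which had 9.21 and 9.80 CPM for Bst2 and 53.4 and 59.3 CPM for Ifit2.

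The promoters of Igtp and Irgm2, which fell, and of Irgm1, which was not called, are printed to show the interferon-stimulated response element they share. All are on chromosome 11 of GRCm38.p6 from RefSeq, at chr11:58199306-58199605 (plus strand), chr11:58214727-58215026 (plus strand) and chr11:48871371-48871670 (minus strand). Capitals mark GAAA, any 2 bases and GAAA again, on either strand, and in Irgm1 they span 2 overlapping matches.
Igtp: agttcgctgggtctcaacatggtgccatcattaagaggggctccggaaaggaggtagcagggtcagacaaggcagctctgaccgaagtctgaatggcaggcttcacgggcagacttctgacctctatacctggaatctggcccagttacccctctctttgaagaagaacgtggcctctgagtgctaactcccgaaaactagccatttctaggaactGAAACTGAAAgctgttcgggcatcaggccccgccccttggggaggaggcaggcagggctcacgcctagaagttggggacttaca
Irgm2: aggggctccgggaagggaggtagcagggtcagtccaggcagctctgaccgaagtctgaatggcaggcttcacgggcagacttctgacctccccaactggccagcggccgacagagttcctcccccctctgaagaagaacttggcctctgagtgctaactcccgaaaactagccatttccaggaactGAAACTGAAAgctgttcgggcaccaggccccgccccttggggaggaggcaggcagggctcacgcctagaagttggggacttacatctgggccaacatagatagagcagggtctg
Irgm1: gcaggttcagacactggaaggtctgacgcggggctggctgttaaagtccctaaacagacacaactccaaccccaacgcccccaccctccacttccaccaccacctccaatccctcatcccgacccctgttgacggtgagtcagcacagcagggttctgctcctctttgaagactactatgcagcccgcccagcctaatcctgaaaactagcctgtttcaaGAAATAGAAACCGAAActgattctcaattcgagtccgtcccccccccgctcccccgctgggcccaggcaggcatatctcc
The letters are in 3.44% of all 32851 promoters. Counted per gene with a promoter, they are in 3.72% of tested genes, but in 10 of the 11 IRG and GBP genes. Among called genes with a promoter they were in 2 of 16 lower ones, Igtp and Irgm2, and in none of 60 higher ones. Members that were not called, such as Irgm1, held it too.

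**Figure D3:**
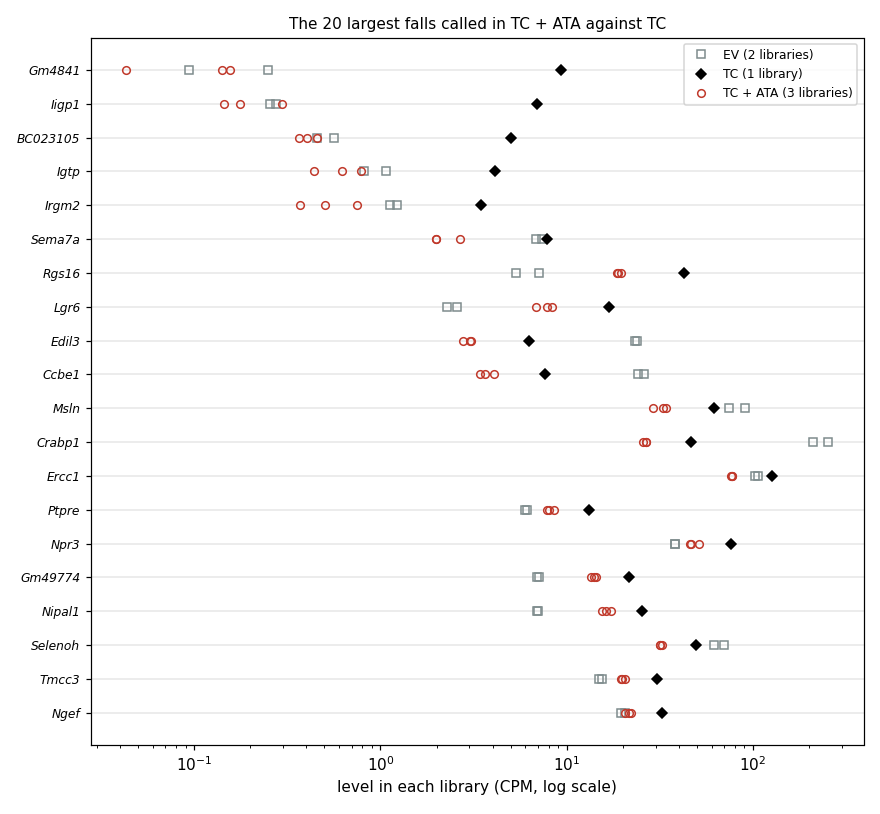
The 20 largest falls among called genes with a mean of at least 1 CPM, with the level in each library in CPM on a log scale (squares EV, diamond TC, circles TC + ATA). For Gm4841 and Iigp1 the diamond, at 9.36 and 6.96 CPM, stands apart from both other groups, whereas for Edil3 and Crabp1 EV is above TC. Gm4841, Iigp1 and BC023105 reach the mean of 1 CPM only through TC, and each of their other libraries is below 1 CPM.

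Other falls covered surface, signaling and repair genes. Sema7a (chromosome 9, 57940112 to 57962865), a membrane-anchored semaphorin that signals through integrins, had 7.87 CPM in TC, 1.99, 2.68 and 2.00 CPM in TC + ATA and 6.87 and 7.38 CPM in EV. Here TC and EV were close and the treated cells were low (log2 fold change −1.82, standard error 0.19, edgeR adjusted p = 0.00538). Ercc1, a subunit of the nuclease of nucleotide excision repair, showed the same order, with 126.7 CPM in TC, 77.6, 76.3 and 77.2 CPM in TC + ATA and 106.7 and 102.8 CPM in EV (log2 fold change −0.72, standard error 0.07, edgeR adjusted p = 0.00476). Msln, the surface glycoprotein mesothelin, had 62.1 CPM in TC, 32.8, 29.0 and 34.1 CPM in TC + ATA and 74.0 and 91.0 CPM in EV. Selenoh, a nucleolar selenoprotein, and Sox9, a factor of cartilage development, were likewise below both TC and EV in every treated library, with log2 fold changes of −0.63 and −0.56.

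A second kind of fall ran towards a lower EV level. Rgs16, a regulator of G protein signaling, had 42.6 CPM in TC, 19.0, 18.5 and 19.7 CPM in TC + ATA and 5.32 and 7.12 CPM in EV (log2 fold change −1.16, standard error 0.13, edgeR adjusted p = 0.00789). Lgr6, an R-spondin receptor that strengthens WNT signaling, had 16.9 CPM in TC, 8.32, 6.87 and 7.85 CPM in TC + ATA and 2.27 and 2.57 CPM in EV (log2 fold change −1.14, edgeR adjusted p = 0.0115). Npr3, the clearance receptor of natriuretic peptides, had 76.2 CPM in TC, 46.1, 46.8 and 51.4 CPM in TC + ATA and 38.0 and 38.1 CPM in EV. In these 3 genes the treated libraries lay between TC and EV.

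A further kind moved away from EV. Edil3, an integrin ligand of the matrix, had 6.31 CPM in TC, 3.03, 3.05 and 2.76 CPM in TC + ATA and 23.9 and 23.3 CPM in EV (log2 fold change −1.10, edgeR adjusted p = 0.00679). Ccbe1, which helps to process VEGF-C in lymphatic growth, had 7.69 CPM in TC, 4.07, 3.41 and 3.65 CPM in TC + ATA and 24.2 and 26.1 CPM in EV. Crabp1, a retinoic acid binding protein of the cytosol, had 46.4 CPM in TC, 25.7, 26.6 and 26.6 CPM in TC + ATA and 254.3 and 210.0 CPM in EV. These were already low in TC and were lower still with ATA.

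Of 17 feedback genes of MAP kinase signaling tested, Etv4 and Errfi1 fell, none was called higher, and 15 did not pass the test. Of all 17, 13 (76.5%) had all 3 treated libraries below TC, beside 32.7% of all genes, and the median was −0.13. Etv4, an ETS factor induced by ERK, had 106.2 CPM in TC, 78.9, 74.9 and 75.5 CPM in TC + ATA and 48.8 and 50.2 CPM in EV (log2 fold change −0.47, standard error 0.07, edgeR adjusted p = 0.0296). Errfi1, an inhibitor of the EGF receptor, had 107.1 CPM in TC, 71.0, 79.7 and 76.3 CPM in TC + ATA and 115.8 and 110.9 CPM in EV (log2 fold change −0.50, edgeR adjusted p = 0.0426). Etv5 (log2 fold change −0.47, edgeR adjusted p = 0.0511) and Lrig1 (−0.45, edgeR adjusted p = 0.0698) did not pass the test. Dusp6, a phosphatase of ERK, had 64.1 CPM in TC and 56.0, 59.0 and 61.1 CPM in TC + ATA.

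All but 1 of the YAP/TAZ target genes missed the threshold. Of 22 tested, F3, the gene of tissue factor, was called and was higher, from 81.6 CPM in TC to 129.7, 137.6 and 132.8 CPM in TC + ATA, with 61.6 and 72.1 CPM in EV (log2 fold change 0.71, edgeR adjusted p = 0.0198). No member was called lower, and the median was 0.01. Ccn1 had 779.9 CPM in TC and 735.5, 764.7 and 772.1 CPM in TC + ATA, with 275.3 and 332.1 CPM in EV (log2 fold change −0.04, standard error 0.11, edgeR adjusted p = 0.947). Ccn2 had 160.4 CPM in TC and 155.7, 153.3 and 163.4 CPM in TC + ATA, with 110.7 and 102.4 CPM in EV (log2 fold change −0.03, standard error 0.08, edgeR adjusted p = 0.954). Amotl2, which encodes an angiomotin that binds YAP, and Ankrd1, a nuclear ankyrin repeat protein, had log2 fold changes of 0.05 and −0.04 with standard errors of 0.08 and 0.09. All 4 genes stayed above both EV libraries in every treated library. A p that misses the threshold does not show that the levels were equal. With only TC and TC + ATA in the fit, 5 of the 22 were higher and 2 lower, beside 795 and 633 of all 18000 genes.

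None of the 24 genes of TEADs, their VGLL cofactors and the Hippo kinases was called in edgeR's test, with a median of −0.04. At an unadjusted p under 0.05, 2 were lower and none higher, beside 3.95% and 5.65% of all genes, and DESeq2 called none. Tead1 had 267.9 CPM in TC and 247.1, 241.7 and 237.2 CPM in TC + ATA, and Tead4 had 86.3 CPM in TC and 72.6, 72.6 and 68.2 CPM in TC + ATA (log2 fold change −0.28, edgeR adjusted p = 0.204). Camta1 had 19.2 CPM in TC and 18.4, 18.8 and 18.7 CPM in TC + ATA. The TEAD core letters GGAATG, on either strand, were counted per gene with a promoter. They were in 15.1% of all tested genes, in 15.0% of those called higher and in 18.8% of those called lower. In the YAP/TAZ target list they were in 7 of 15 genes with a promoter.

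**Figure D4:**
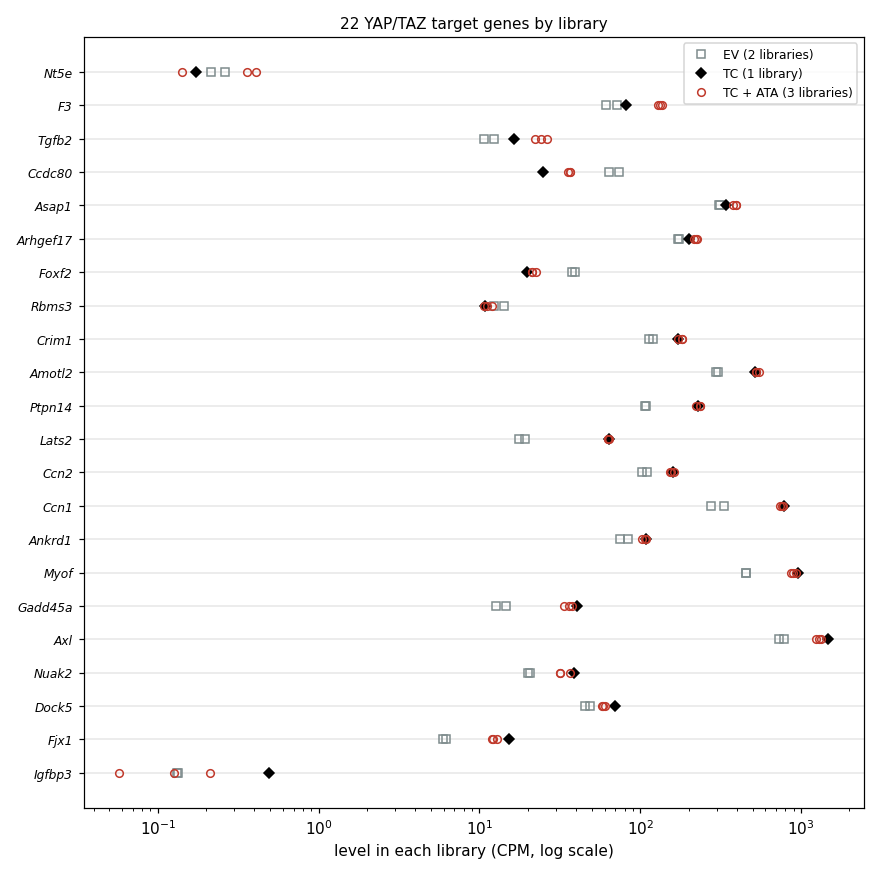
Level of 22 YAP/TAZ target genes in each library in CPM on a log scale, ordered by fitted log2 fold change (squares EV, diamond TC, circles TC + ATA). The circles of Ccn1, Ccn2, Amotl2 and Ankrd1 lie on or next to the diamond and to the right of the squares, and F3 is the only called gene, with treated libraries at 129.7 to 137.6 CPM.

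Several large gene groups held no member called by edgeR, and their small shifts are given as descriptions. Over all genes tested, 30.5% had all 3 treated libraries above TC and 32.7% had them below it. Of 40 genes of DNA replication and mitosis, 29 had all 3 treated libraries below TC (median −0.11), and Top2a, the topoisomerase of dividing cells, had 513.8 CPM in TC and 463.5, 454.4 and 450.2 CPM in TC + ATA. Pcna, the sliding clamp of replication, had 359.1 CPM in TC and 371.8, 373.7 and 374.9 CPM in TC + ATA. Of 29 translation factors, 23 lay below TC (median −0.12), and so did 10 of 13 heat shock genes (median −0.13), among them the chaperones Hsp90ab1, at 5261 CPM in TC and 4648, 4488 and 4389 CPM in TC + ATA, and Hsp90aa1 (log2 fold change −0.21). In the other direction, 19 of 24 lysosome and autophagy genes (median 0.17), 50 of 78 oxidative phosphorylation subunits (median 0.07) and 20 of 31 genes of cholesterol and fatty acid synthesis (median 0.08) had all 3 treated libraries above TC. At an unadjusted p under 0.05 in edgeR, 7 lysosome genes were higher and 1 lower, 4 replication genes, 1 translation factor and 3 heat shock genes were lower, and 1 heat shock gene, 1 oxidative phosphorylation subunit and 2 cholesterol and fatty acid genes were higher. Over all genes the shares at this limit were 5.65% higher and 3.95% lower, and the counts for translation factors, oxidative phosphorylation and cholesterol and fatty acid genes were near or under them. DESeq2 on all libraries called 3 lysosome genes, all higher, and no member of the other 5 groups. Over all 18539 genes it called 285 higher and 113 lower. With only TC and TC + ATA in the fit, 11 lysosome genes were called higher, and 9 replication genes, 10 translation factors and 7 heat shock genes lower. That fit called 795 of all 18000 genes higher and 633 lower.

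**Figure D5:**
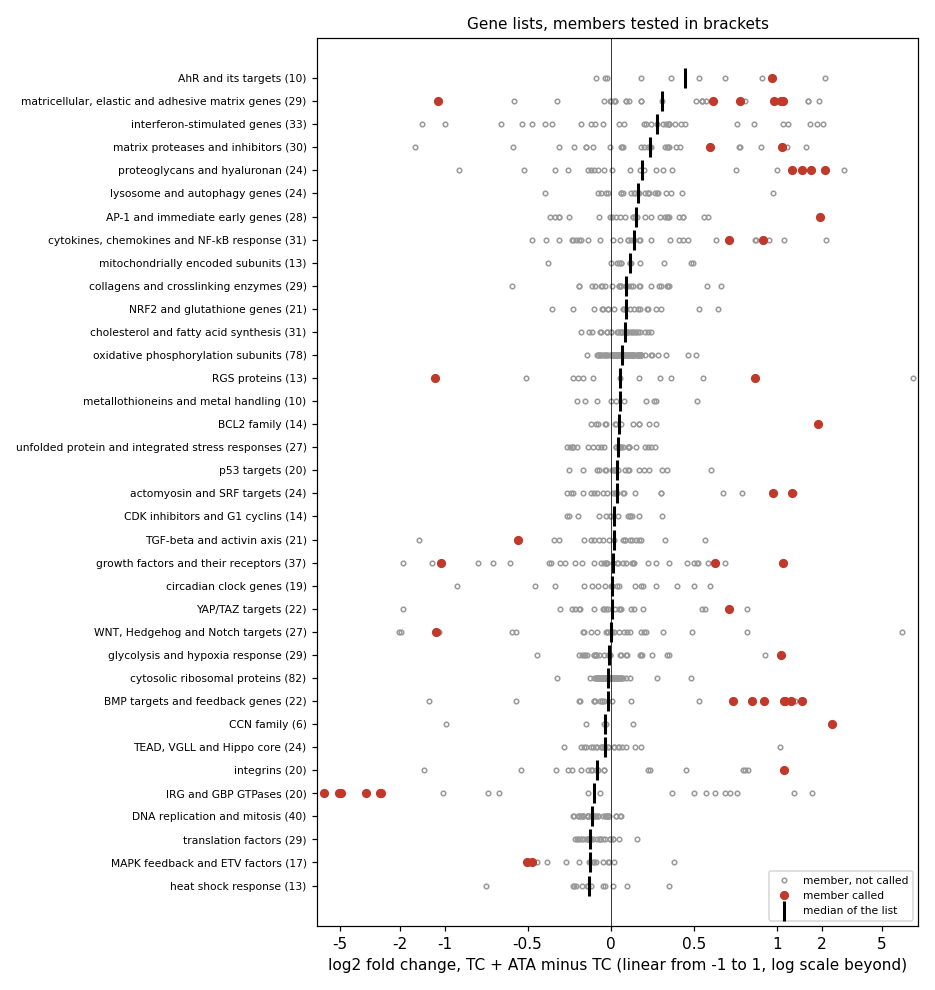
Fitted log2 fold change, TC + ATA minus TC, of each tested member of the gene lists (linear from −1 to 1, log scale beyond), with filled points for called genes and a bar for the median of each list. Called members stand far from their list's median in the BMP, IRG and GBP lists, and, among the lists plotted, which leave out the cell type markers and the lists chosen after the values were seen, the medians run from −0.13 for heat shock genes to 0.45 for AhR genes.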

How the data were processed

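Poly(A)-selected RNA of NIH3T3 cells was sequenced in 6 libraries, of which the 3 TC + ATA and 1 TC libraries were compared and the 2 EV libraries gave levels and spread. The authors aligned reads with HISAT2 2.2.1 (per the submitters' processing notes) to GRCm38.p6 and deposited raw counts per gene from featureCounts, run in Galaxy. The strand setting and the annotation release are not given in the sources used here. Groups came from the labels. Names came from GENCODE M21, which held 55141 of 55401 genes, and promoters from RefSeq.

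Counts were fitted in R 4.3.3 with edgeR 4.0.16 (TMM, filterByExpr, glmQLFit and glmQLFTest, all libraries, Benjamini-Hochberg adjustment), and standard errors were derived from the F statistic. DESeq2 1.42.0, other scalings, other filters, a replicate block and each replicate left out were alternatives. Counting error is small at this depth, 3 counts being 0.0403 to 0.0513 CPM, so precision is set by the few libraries. On simulated counts of 17876 genes, 94 of 100 changed 2-fold were called, and 100 of 100 changed by 2 on the log2 scale, with 5 false calls. The simulation gave TC and EV the same mean and every gene a spread set by its level alone. It therefore does not cover a TC library that is itself unusual.

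The gene lists and their members were chosen with earlier results of these data known. Named genes were the 20 largest called rises and falls (mean level of 1 CPM or more), up to 4 called members of each list or, where none was called, its 2 most abundant, and Wwtr1, Camta1, Ccn1, Ccn2, Amotl2 and Ankrd1. The text also names genes picked once their values had been seen. Of the called genes these are Id2, Id3, Smad6, Thbs2, Emilin1, Ephx1, Gstm2, Mb, Sox9, Daam2 and those of the closing paragraphs. Of the others they are Cyp1a1, Ahrr, Nqo1, Tiparp, Egr1, Jun, Fosl1, Etv5, Lrig1, Dusp6, Smad7, Irgm1, Tead1, Tead4, Myh4, Cdh5, Actc1 and Myod1. The list of striated muscle genes was picked in the same way.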

Additional observations from a re-analysis of the deposited data

How the results depend on the processing

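The number of calls changed with the processing. Of 1398 refits of a called gene, 1031 kept the call. None changed direction, but every fit holds the same TC library, with all 3 TC + ATA libraries on one side of it. The direction could therefore hardly change. The counts of genes higher and lower, 79 and 29, became 795 and 633 with edgeR on TC and TC + ATA alone, 762 and 770 with DESeq2 on the same libraries, 285 and 113 with DESeq2 on all libraries, and 242 and 108 without the filter on low counts. Leaving out 1 library gave from 7 to 808 genes higher and from 3 to 762 lower, the lowest without TC + ATA replicate 3 and the highest without EV replicate 2 for rises and EV replicate 1 for falls. Without an EV library, EV adds nothing to the spread, and the TC library, being the only one, cannot be left out.

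Adding the replicate number to the fit as a block left 32 rises and 8 falls, and 31 of the 108 calls were kept. The labels do not say whether the numbers pair samples. The deviations of same-numbered EV and TC + ATA libraries had correlations of 0.01 and −0.18. These values cannot settle the question, since the deviations of the 2 EV libraries mirror each other and TC carries the number 1 alone. Camta1 then had a log2 fold change of 0.023 (edgeR adjusted p = 0.997), against −0.04.

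Of the genes at least 1.5-fold below TC in every treated library, 36 became 62 without the limit on the mean level. Leaving out a treated library gave 50 to 56 genes below and 159 to 172 above. Of 533 values of list medians under alternatives, 466 stayed within the spread of the libraries and 67 moved.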

Other observations

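Further called genes that belonged to none of the groups above may be given as values. Daam2, a formin that acts in WNT signaling, had 45.6 CPM in TC, 99.8, 101.2 and 93.8 CPM in TC + ATA and 103.1 and 102.3 CPM in EV (log2 fold change 1.11, standard error 0.08, edgeR adjusted p = 0.00161). Slc1a3, a glutamate transporter, had 4.67 CPM in TC, 9.93, 9.55 and 9.85 CPM in TC + ATA and 38.6 and 41.2 CPM in EV. Both were above TC in every treated library.

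Metabolic regulators were among the smaller rises. Txnip, an inhibitor of thioredoxin and of glucose uptake, had 23.4 CPM in TC, 38.9, 37.8 and 39.0 CPM in TC + ATA and 62.1 and 63.4 CPM in EV (log2 fold change 0.72, edgeR adjusted p = 0.00759). Pdk4, a kinase that shuts down pyruvate dehydrogenase, had 45.3 CPM in TC, 70.3, 68.9 and 68.2 CPM in TC + ATA and 110.9 and 117.2 CPM in EV. Idh1, the cytosolic isocitrate dehydrogenase, had 127.1 CPM in TC, 186.1, 194.3 and 188.7 CPM in TC + ATA and 185.7 and 171.6 CPM in EV. Txnip shares 606 of its 3123 exonic bases with a gene on the opposite strand.

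Cyp26b1, which degrades retinoic acid, had 35.9 CPM in TC, 66.1, 63.5 and 67.3 CPM in TC + ATA and 80.7 and 68.9 CPM in EV (log2 fold change 0.87, edgeR adjusted p = 0.0103). Stat3, a factor downstream of interleukin 6 family cytokines, had 37.0 CPM in TC, 52.4, 52.6 and 51.8 CPM in TC + ATA and 99.2 and 104.1 CPM in EV, the smallest rise called (log2 fold change 0.50, edgeR adjusted p = 0.0303). These genes were chosen after their values were seen.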
